A study of Homo sapiens with 16 samples.

Results

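The 10 genes described here belong to the unfolded protein response and the ATF4 pathway, and their mRNA was measured on 16 arrays of Caco-2 cells. They were ATF4, DDIT3, TRIB3, ASNS, SESN2, PPP1R15A, XBP1, HSPA5, HERPUD1 and DNAJB9, and every non-control probe carrying one of these names on the array was taken. They were 10 of 30982 distinct names on the array and had 15 of its 41000 non-control probes, since 5 of the 10 genes had more than 1 probe. All 15 were well above background on each of the 16 arrays, and none of their spots was marked or saturated. All of them passed the filter and were among the 40982 probes tested.

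Caco-2 is an epithelial line from a human colon carcinoma, and undifferentiated cells of this line were used throughout. Each of 4 conditions had 4 arrays, all after 6 h. MED-CTL cells stayed in medium with a little fetal calf serum, and this medium carried every stimulant. All cells were washed before and detached with trypsin-EDTA afterwards. PT-G is gliadin, the alcohol-soluble wheat protein of celiac disease, after digestion with pepsin and trypsin. PT is the blank digest, which held the heat-inactivated enzymes and no substrate, so both digests shared the enzymes. The synthetic gliadin peptide p31-43 was given at 150 µg/ml and was no digest. The experiment was carried out 4 times on cells of neighbouring passages. The study asked which genes of intestinal epithelial cells respond to gliadin.

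The unfolded protein response is set off when unfolded proteins build up in the endoplasmic reticulum (ER). The sensor PERK phosphorylates the initiation factor eIF2, which lowers protein synthesis in general but favours translation of ATF4, and kinases sensing amino acid shortage or double-stranded RNA reach ATF4 the same way. The sensor IRE1 splices the XBP1 mRNA, and ATF6 is released by cleavage in the Golgi. ATF4 raises genes of amino acid supply and stress control, while spliced XBP1 and ATF6 raise chaperones and degradation factors of the ER. Much of ATF4 control is translational, and XBP1 is controlled by splicing, so the level of either mRNA is only one side of its activity. The files do not place the probes on the transcripts, and no value below tells spliced from unspliced XBP1.

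The promoters of 4 of the genes are shown because they hold well known binding sequences of this response, one of which XBP1 and HSPA5 share. RefSeq (build GRCh38.p14) gives 16 windows from 250 bases before to 50 bases after a start for the 10 genes. ATF4, DDIT3, TRIB3, ASNS and XBP1 have more than 1 window, while the shares below are of single windows. Searched in all of them on both strands were 5 motifs, none of which was in the second XBP1 or ASNS window. The first is ERSE, the ER stress response element (CCAAT and CCACG with 9 bases between them), and it was found in XBP1, from position -52, and in HSPA5, from position -66. It occurs in 27 of 35116 windows of the same length (0.0769%). ERSE-II (ATTGG and CCACG with 1 base between them) was found in HERPUD1 from position -117, and 0.0541% of all windows hold it. The CRE (TGACGTCA) was found in PPP1R15A from position -58, and 1.85% hold it. CARE, the C/EBP-ATF element (TGATGNAA), was found in ASNS from position -68 and in HERPUD1 on the opposite strand from position -176, and 3.62% hold it. The core of UPRE (TGACGTGG) was in no window of the 10 genes and in 0.729% of all. A match is a description of letters and not a measured site. The 250 bases before the start follow on the gene's strand, with the matched letters in capitals, for XBP1 (chr22:28800570-28800819, minus strand), HSPA5 (chr9:125241344-125241593, minus strand), HERPUD1 (chr16:56931892-56932141, plus strand) and PPP1R15A (chr19:48872171-48872420, plus strand).
XBP1: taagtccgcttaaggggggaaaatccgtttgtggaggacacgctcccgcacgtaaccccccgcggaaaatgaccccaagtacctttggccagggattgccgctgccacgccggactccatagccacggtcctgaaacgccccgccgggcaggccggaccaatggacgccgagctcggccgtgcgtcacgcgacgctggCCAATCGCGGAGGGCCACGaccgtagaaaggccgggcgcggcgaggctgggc
HSPA5: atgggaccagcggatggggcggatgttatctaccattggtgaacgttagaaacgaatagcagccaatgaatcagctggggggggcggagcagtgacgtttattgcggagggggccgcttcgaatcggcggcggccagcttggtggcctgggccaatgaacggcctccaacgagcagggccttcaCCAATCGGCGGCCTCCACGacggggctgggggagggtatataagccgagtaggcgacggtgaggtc
HERPUD1: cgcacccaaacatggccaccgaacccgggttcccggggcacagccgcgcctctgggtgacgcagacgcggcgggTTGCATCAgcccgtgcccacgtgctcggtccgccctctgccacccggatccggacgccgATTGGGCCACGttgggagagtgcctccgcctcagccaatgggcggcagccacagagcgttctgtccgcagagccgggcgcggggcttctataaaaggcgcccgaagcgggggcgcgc
PPP1R15A: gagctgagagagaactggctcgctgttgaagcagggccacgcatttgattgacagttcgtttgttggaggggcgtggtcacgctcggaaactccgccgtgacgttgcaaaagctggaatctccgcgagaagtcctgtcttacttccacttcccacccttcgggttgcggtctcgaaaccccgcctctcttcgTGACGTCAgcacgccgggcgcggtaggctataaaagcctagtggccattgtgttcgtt

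The values are log2 intensities after quantile normalization, and differences between conditions are log2 fold changes from limma. The arrays fell into 4 runs by the dates in the names of their files, with 1 array of each condition in each run. Runs 1 and 2 lay months before runs 3 and 4, and these pairs are called batches 1 and 2. The correlation between any pair of arrays was between 0.9704 and 0.9984. All 7 epithelial markers checked (CDH1, CDX2, EPCAM, KRT18, KRT8, LGALS4 and VIL1) were well above background on all 16 arrays. Of 6 markers of other cell types, PTPRC was above it on none, COL1A2 on 8, and CD14, CD3E, COL1A1 and PECAM1 on all 16. LGALS4 was dim, with a mean log2 level of 7.191, below CD14 (9.653), PECAM1 (8.563) and COL1A1 (8.304). The other epithelial markers averaged 10.25 (CDX2) or more. RNA came from whole cultures, so fewer responding cells and less RNA per cell cannot be told apart.

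Among the 10 genes, XBP1 mRNA was higher after both digests, and the other genes did not pass the threshold of the study, a nominal p under 0.01. Of the 15 probes, 1 passed it for PT-G against MED-CTL and 1 for PT against MED-CTL, in both cases the brighter XBP1 probe and in both cases higher. Over all 40982 probes, 3.43% passed for PT-G and 3.64% for PT (1.91% and 1.76% higher), so the count of 1 in 15 is no result about the genes as a set. None of the 15 had an adjusted p under 0.05 in limma, where 0.93% and 0.83% of all probes did, and 2 of 15 had an unadjusted p under 0.05 in each comparison (7.94% and 8.95% of all probes). The median log2 fold change of the 15 probes was 0.08 for PT-G and 0.12 for PT, and that of all probes was -0.01 in both. Both comparisons used the same 4 MED-CTL arrays. In both, the single probe whose arrays did not overlap with MED-CTL was again that of XBP1, where 2.02% of all probes were without overlap and higher for PT-G and 2.28% for PT.

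**Figure D1:**
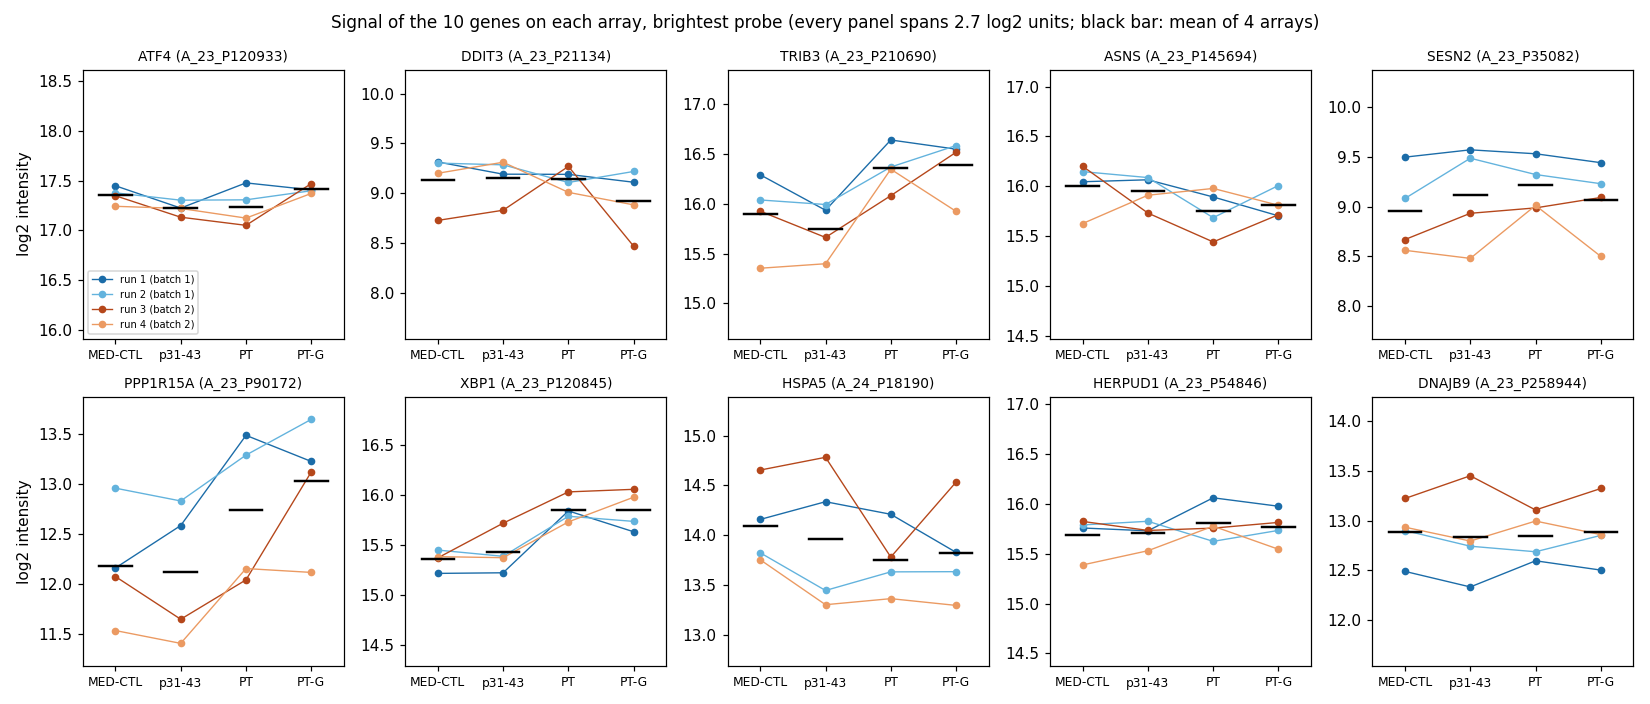
Log2 intensity of the brightest probe of each of the 10 genes on each array (y axis, every panel spanning the same range) in the 4 conditions (x axis), with a line for each run, coloured by batch, and a black bar for the mean of 4 arrays. XBP1 was higher on every PT and PT-G array than on every MED-CTL array, whereas for PPP1R15A and SESN2 the runs of batch 1 tended to lie above those of batch 2.

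XBP1 encodes the transcription factor made from the spliced mRNA. Its brighter probe (A_23_P120845) read 15.21, 15.45, 15.37 and 15.38 on the MED-CTL arrays of runs 1 to 4. With PT-G it read 15.63, 15.74, 16.06 and 15.98. With PT it read 15.84, 15.79, 16.03 and 15.73. All 8 digest arrays thus lay above all 4 MED-CTL arrays, and the MED-CTL arrays stayed within a narrow range. The mean rose from 15.35 ± 0.10 (SD, n = 4) to 15.85 ± 0.20 with PT-G and to 15.85 ± 0.13 with PT. This was a log2 fold change of 0.50 for PT-G (SE 0.12, 95% interval 0.25 to 0.75, adjusted p = 0.0727) and of 0.49 for PT (SE 0.12, interval 0.24 to 0.75, adjusted p = 0.0775), or 1.41-fold in both. A block for the run brought the adjusted p to 0.00566 (PT-G) and 0.00567 (PT). Within batch 1 the log2 fold change was 0.35 (PT-G) and 0.48 (PT), and within batch 2 it was 0.64 and 0.51. The call held without each of the 16 arrays in turn, with values between 0.43 and 0.57 for PT-G and between 0.43 and 0.53 for PT. With the background-subtracted signal the values were 0.47 and 0.45 and did not pass (adjusted p = 0.426 and 0.419).

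The dimmer XBP1 probe (A_24_P100228) read 11.30, 11.73, 11.23 and 11.09 on the MED-CTL arrays of runs 1 to 4. With PT-G it read 12.11, 12.08, 11.98 and 10.84, and with PT 12.31, 12.21, 11.75 and 11.24. The PT-G arrays of runs 1 to 3 were above every MED-CTL array, but that of run 4 was below all of them. Its log2 fold change was 0.41 for PT-G (SE 0.31, adjusted p = 0.951) and 0.54 for PT (SE 0.31, adjusted p = 0.699), in the same direction as for the brighter probe and with overlap between the groups. The probe was higher with PT than with MED-CTL in 4 of 4 runs, and with a run block it passed the nominal threshold but not the adjustment (adjusted p = 0.0781). Over the 16 arrays both XBP1 probes had a Pearson correlation of 0.37.

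TRIB3 encodes a pseudokinase that ATF4 and DDIT3 raise and that restrains AKT signalling. Its brighter probe (A_23_P210690) read 16.29, 16.04, 15.93 and 15.35 on the MED-CTL arrays of runs 1 to 4. With PT-G it read 16.55, 16.58, 16.52 and 15.92, and with PT 16.64, 16.37, 16.08 and 16.35. In each of the 4 runs both digest arrays lay above the MED-CTL array, but the groups overlapped, and run 4 was low in MED-CTL and PT-G alike. PT-G gave a log2 fold change of 0.49 (SE 0.21, adjusted p = 0.530) and PT one of 0.46 (SE 0.21, adjusted p = 0.535). A run block lowered the adjusted p to 0.0420 (PT-G) and 0.0528 (PT). Without PT-G replicate 4 the probe passed for PT-G also without a block, with a log2 fold change of 0.65, which made 2 of 15 probes. The dimmer TRIB3 probe (A_24_P305541) read 11.46, 11.46, 9.98 and 10.31 in MED-CTL and 12.19, 12.02, 11.29 and 10.99 with PT. With PT-G it read 12.16, 12.15, 10.89 and 10.15. It was higher with PT in 4 of 4 runs and with PT-G in 3 of 4. For PT the log2 fold change was 0.82 (SE 0.49) with an adjusted p = 0.713, or 0.0226 with a run block. For PT-G it was 0.53 (SE 0.49) with an adjusted p = 0.9997, or 0.136 with a run block.

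PPP1R15A, also known as GADD34, encodes the subunit that directs protein phosphatase 1 to eIF2 and so restores protein synthesis. Its probe (A_23_P90172) read 12.16, 12.96, 12.07 and 11.53 on the MED-CTL arrays of runs 1 to 4. With PT-G it read 13.23, 13.65, 13.12 and 12.11, and with PT 13.49, 13.29, 12.04 and 12.15. With PT-G every run was higher than its MED-CTL array, by between 0.58 and 1.07, and with PT this held in 3 of 4 runs. The groups overlapped, and run 4 was lowest in MED-CTL, p31-43 and PT-G. The mean was 12.18 ± 0.59 (SD, n = 4) in MED-CTL, 13.03 ± 0.65 with PT-G and 12.74 ± 0.75 with PT. The log2 fold change of 0.85 for PT-G, the highest among the 15 probes, had an SE of 0.45 and an adjusted p of 0.741. That for PT was 0.56 (SE 0.45, adjusted p = 0.808). A run block brought the adjusted p to 0.0251 (PT-G) and 0.114 (PT). Within batch 1 the log2 fold change was 0.88 (PT-G) and 0.83 (PT), and within batch 2 it was 0.82 and 0.29.

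With a run block 3 of 15 probes passed the adjustment with PT-G, all higher (XBP1, TRIB3 and PPP1R15A, 1 probe each), where 5.73% of all probes passed and 3.18% passed and were higher. For PT, 2 of 15 passed, both higher (the brighter XBP1 and the dimmer TRIB3 probe), where 6.5% of all probes passed and 3.06% were higher. The call of the ATF4 branch probes depended on the block for PT-G. With the replicate number or the batch as the block, only the brighter XBP1 probe of the 15 passed the adjustment, where 3.92% and 2.44% of all probes did. PPP1R15A then had an adjusted p of 0.0510 and 0.0826, and the brighter TRIB3 probe one of 0.0624 and 0.116. With the slide as the block 3 of 15 passed (9.32%). For PT the adjusted counts were 2 with the replicate number (4.33%), 2 with the batch (2.46%) and 5 with the slide (6.93%). At the nominal threshold, a block for the run, the replicate number, the slide or the batch gave 3, 3, 4 and 3 of 15 probes for PT-G, where 9.11%, 7.58%, 12.2% and 5.81% of all probes passed. For PT the counts were 4, 4, 5 and 3, where 10.2%, 8.45%, 10.6% and 6.02% passed. Counting runs alone, 4 of 15 probes were higher with PT-G in all 4 runs (13.8% of all probes), and 2 were lower in all 4 (14.9%). Among the higher ones was the dimmer ASNS probe, with differences of only 0.0072 to 0.0674. With PT, 5 of 15 were higher in all 4 runs (10.8%) and none lower (13.8%).

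**Figure D2:**
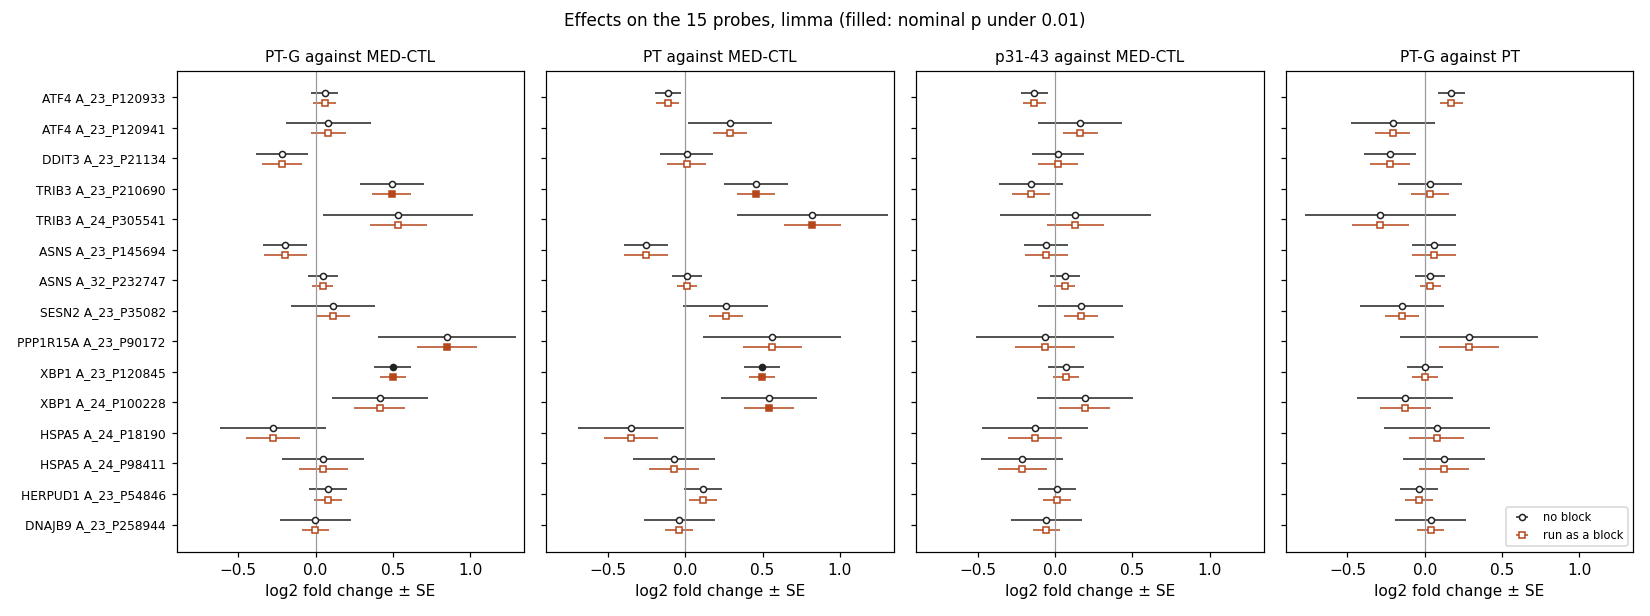
Log2 fold changes (x axis) with their standard errors for the 15 probes (y axis) in 4 comparisons, from limma without a block (circles) and with the run as a block (squares), filled where the nominal p was under 0.01. Only the brighter XBP1 probe is filled without a block, for PT-G and PT, and no probe is filled for p31-43 or for PT-G against PT.

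ATF4 itself did not pass in any comparison. Its brighter probe (A_23_P120933) read between 17.24 and 17.45 in MED-CTL, between 17.37 and 17.47 with PT-G, between 17.05 and 17.48 with PT and between 17.13 and 17.30 with p31-43. Each stimulant overlapped with MED-CTL. The log2 fold change was 0.06 for PT-G (SE 0.08, 95% interval -0.12 to 0.24) and -0.11 for PT (SE 0.08, -0.30 to 0.07). The dimmer probe (A_23_P120941) read 13.77, 14.00, 13.12 and 13.82 on the MED-CTL arrays, with run 3 far below the others in MED-CTL, p31-43 and PT-G. Its log2 fold change was 0.08 for PT-G and 0.29 for PT (SE 0.27 in both). Over the 16 arrays both probes had a Pearson correlation of 0.108.

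Of the further ATF4 branch genes, none passed with or without the run as a block in either digest. DDIT3, also known as CHOP, encodes a transcription factor of prolonged ER stress. It read 9.31, 9.30, 8.73 and 9.20 in MED-CTL and 9.11, 9.22, 8.47 and 8.88 with PT-G. PT-G arrays were thus the lower ones in all 4 runs, with differences from -0.32 to -0.08, although the groups overlapped. The mean log2 fold change was -0.22 (SE 0.17, adjusted p = 0.967) for PT-G and 0.01 (SE 0.17, adjusted p = 0.996) for PT. ASNS, the asparagine synthetase, had -0.20 (SE 0.14) for PT-G and -0.26 (SE 0.14) for PT on its brighter probe (A_23_P145694). Its other probe (A_32_P232747), which carries the accession of a different transcript record, had 0.05 and 0.01 (SE 0.10 in both) and spanned 0.46 over all 16 arrays. That probe was dim, with a mean log2 level of 6.955 against 15.88 for the brighter one. SESN2, an inhibitor of mTORC1 signalling, had 0.11 for PT-G and 0.26 for PT (SE 0.27 in both), and it was higher with PT in 4 of 4 runs by between 0.03 and 0.45.

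The chaperone HSPA5, also known as BiP, holds the sensors of this response inactive and is among its best known targets. Its brighter probe (A_24_P18190) read 14.16, 13.82, 14.65 and 13.75 on the MED-CTL arrays of runs 1 to 4 and 13.83, 13.63, 14.53 and 13.29 with PT-G. With PT it read 14.21, 13.63, 13.78 and 13.36. It was lower with PT-G than with MED-CTL in all 4 runs, with differences from -0.46 to -0.12, while the groups overlapped widely and run 3 was highest in MED-CTL, p31-43 and PT-G. Its log2 fold change was -0.27 for PT-G (SE 0.34, adjusted p = 0.9997) and -0.35 for PT (SE 0.34, adjusted p = 0.851). The second HSPA5 probe (A_24_P98411) had 0.05 and -0.07 (SE 0.27 in both). The XBP1 and HSPA5 promoters printed above share the ERSE letters. With PT-G the brighter XBP1 probe rose by 0.50 and passed, and the dimmer one had 0.41 and did not pass. Neither HSPA5 probe passed. Without a block, the intervals with PT-G were -0.52 to 0.62 for the second HSPA5 probe and -1.01 to 0.46 for the brighter one. With a run block the SE was 0.16 for the second HSPA5 probe and 0.18 for the brighter one. The difference between both genes was not tested. HERPUD1, an ER membrane protein that takes part in degradation, had 0.08 and 0.12 (SE 0.12), with all 16 arrays between 15.39 and 16.06. DNAJB9, an ER co-chaperone of HSPA5, had -0.00 and -0.04 (SE 0.23), and its level differed between runs far more than between conditions. The run accounted for 89.5% of the variance of DNAJB9 over the 16 arrays and the condition for 0.648%, whereas for the brighter XBP1 probe these shares were 17.4% and 72%.

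No probe of the 10 genes passed with the peptide p31-43. Of the 15, 0 had a nominal p under 0.01 in limma (0.403% of all probes had) and 0 an unadjusted p under 0.05 (2.15%). The count at the nominal threshold was also 0 with the run, the replicate number, the slide or the batch as a block, where 1.38%, 1.05%, 3.73% and 0.776% of all probes passed. The log2 fold changes lay between -0.21 and 0.19. The brighter XBP1 probe read 15.22, 15.39, 15.72 and 15.37, with run 3 above and the other runs within the range of MED-CTL, and its log2 fold change was 0.07 (95% interval -0.18 to 0.32). The intervals for TRIB3 (brighter probe, -0.15, interval -0.60 to 0.29) and PPP1R15A (-0.07, interval -1.02 to 0.89) were wider. With a run block the SE for PPP1R15A fell from 0.45 to 0.19, and it still did not pass (adjusted p = 0.953). The pair of ATF4 probes differed from MED-CTL in opposite directions. The brighter was lower in 4 of 4 runs (-0.13, SE 0.08) and the dimmer higher in 4 of 4 (0.16, SE 0.27), where 8.71% and 8.21% of all probes did so, and neither passed.

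PT-G was then set against PT to ask what gliadin added to the enzymes. Again 0 of 15 probes passed at a nominal p under 0.01 in limma (0.0903% of all probes did), 0 passed with a run block (0.322%), and 0 had an unadjusted p under 0.05 (0.761%). Their log2 fold changes lay between -0.29 and 0.29. The difference for the brighter XBP1 probe was 0.00 (95% interval -0.25 to 0.25), for the brighter TRIB3 probe 0.03 (-0.41 to 0.48), for PPP1R15A 0.29 (-0.67 to 1.24) and for the brighter ATF4 probe 0.17 (-0.01 to 0.35). Without PT replicate 1 the brighter ATF4 probe passed with a log2 difference of 0.25, making 1 of 15. No probe was higher in all 4 runs (4.64% of all probes) or lower in all 4 (4.35%).

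The level of these genes also differed between the batches, in the opposite direction for different members. In a limma model of condition and batch over the 16 arrays, 7 of 15 probes had an adjusted p under 0.05 (25.9% of all probes), 6 of them lower in batch 2 (13% of all probes were) and 1 higher (12.8%). The dimmer TRIB3 probe averaged 11.77 in batch 1 and 10.58 in batch 2, a log2 difference of -1.18 (SE 0.14, adjusted p = 5.52e-05). PPP1R15A averaged 13.02 and 12.01, a difference of -1.01 (SE 0.16, adjusted p = 6.06e-04). SESN2 averaged 9.39 and 8.78, a difference of -0.62 (SE 0.10, adjusted p = 7.25e-04). The dimmer ATF4 probe (-0.55), the dimmer XBP1 probe (-0.51) and the brighter TRIB3 probe (-0.40) were also lower in batch 2, and DNAJB9 was higher (0.45). The brighter XBP1 probe had the opposite sign to the dimmer one and did not pass (0.17, adjusted p = 0.0904). The brighter ATF4 probe did not pass either (-0.12, adjusted p = 0.0920). The arrays of a run are not independent of each other, and each batch held 2 runs. With the run as a random block, an alternative added after the data were seen, 5 of 15 probes passed, where 11.2% of all probes did. These were the dimmer TRIB3 probe (adjusted p = 0.00323), SESN2 (0.0119), PPP1R15A (0.0131), the dimmer ATF4 probe (0.0405) and DNAJB9 (0.0494). This fit set the correlation within a run at 0.3 for every probe. For these 5 probes the run, batch included, accounted for 59.7% (PPP1R15A) to 89.5% (DNAJB9) of the variance. With 2 runs a batch, their p-values can therefore be too small. The effects of the stimulants were not found to differ between the batches for any of the 15 probes (0 with an adjusted p under 0.05 in limma for PT-G, PT and p31-43, where 0.0708%, 0.0878% and 0.0634% of all probes passed, and 0 also with a nominal p under 0.01, where 0.588%, 1.02% and 0.564% did).

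**Figure D3:**
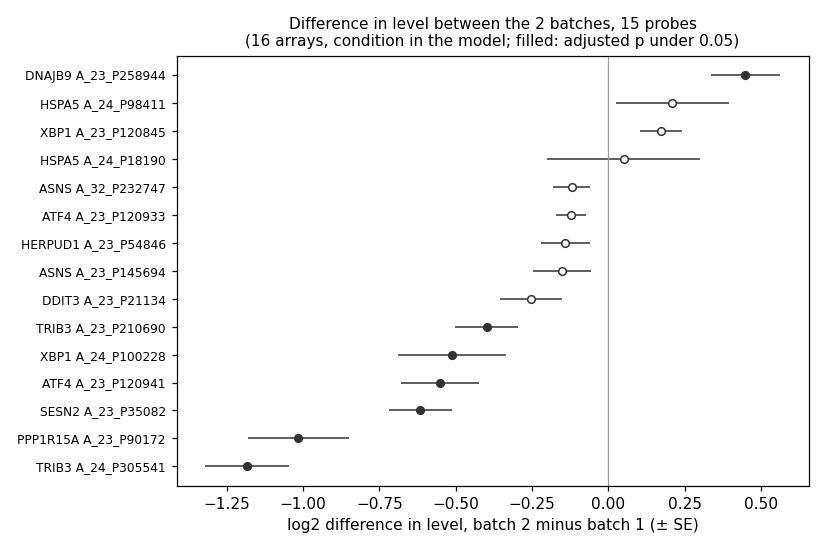
Log2 difference in level between batch 2 and batch 1 (x axis, with its standard error) for the 15 probes (y axis, in order of the difference), from a limma model of condition and batch without the run, filled where the adjusted p was under 0.05. Of the 7 filled probes, 6 lie to the left (lower in batch 2), with TRIB3, PPP1R15A and SESN2 farthest, and DNAJB9 lies to the right.

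The rest of the pathway was taken from 3 lists of 67 further genes, each represented by its brightest probe. The lists were chosen with earlier results of these data known. ATF3 and GDF15, both on the ATF4 branch list, passed the adjustment with both digests. ATF3, a transcription factor of early stress responses, read between 12.00 and 12.35 in MED-CTL, between 13.17 and 13.47 with PT-G and between 12.82 and 13.37 with PT. Neither digest overlapped with MED-CTL. It had a log2 fold change of 1.15 for PT-G (SE 0.14, adjusted p = 0.00146) and 0.87 for PT (SE 0.14, adjusted p = 0.00852). Its second probe had 0.95 and 0.68 (adjusted p = 0.165 and 0.425). GDF15, a secreted stress cytokine, read between 14.34 and 15.25 in MED-CTL, between 15.85 and 16.05 with PT-G and between 15.81 and 16.01 with PT, again without overlap. Its log2 fold change was 1.23 for PT-G (SE 0.19, adjusted p = 0.00804) and 1.17 for PT (SE 0.19, adjusted p = 0.0115). Both genes are also known targets of other pathways. With p31-43 they had -0.06 and -0.04.

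Most genes of the lists did not pass. Of 24 ATF4 branch targets, 3 passed at a nominal p under 0.01 for PT-G, all higher, where 1.91% of all probes passed and were higher. For PT 2 passed, both higher (1.76%). The medians of this list were 0.03 and -0.01. The third with PT-G was SLC38A2, an amino acid transporter (0.83, SE 0.23, adjusted p = 0.157), named here after its values were seen, as were CRELD2 and MANF. Of 31 ER chaperones and degradation factors, 1 passed for PT-G, CRELD2, which was lower (-0.29, SE 0.09, adjusted p = 0.178), and 1 for PT, MANF (ARMET on the array), which was higher (0.33, SE 0.10, adjusted p = 0.171), with medians of -0.09 and -0.13. Of 12 stress sensors and factors of eIF2 control, 0 passed in either comparison, with medians of -0.02 and -0.06. Of these 12, 0 had an unadjusted p under 0.05 in limma, where 7.94% (PT-G) and 8.95% (PT) of all probes did. In all, 4 of 67 genes passed for PT-G (3.43% of all probes) and 3 for PT (3.64%). With a run block SLC38A2 (adjusted p = 0.0145) and CRELD2 (0.0112) passed the adjustment for PT-G, as did MANF (0.0341) and, among the sensors, ERN1, the gene of IRE1 (0.27, adjusted p = 0.0472). MANF (0.00652) and CRELD2 (0.0237) also passed it for PT. The other ERN1 probes, above background on 15 and 13 arrays, had -0.01 and 0.01 with PT-G in the fit without a block. Without a block the count for PT-G fell to 2 without MED-CTL replicate 1 or without PT-G replicate 3. For p31-43, 0 of 67 passed in limma (0.403% of all probes did) and 0 had an unadjusted p under 0.05 (2.15%). Without MED-CTL replicate 4, 1 passed for p31-43. For PT-G against PT both counts were also 0 (0.0903% and 0.761% of all probes). With shares this low, a count of 0 in 67 is no result about the lists.

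**Figure D4:**
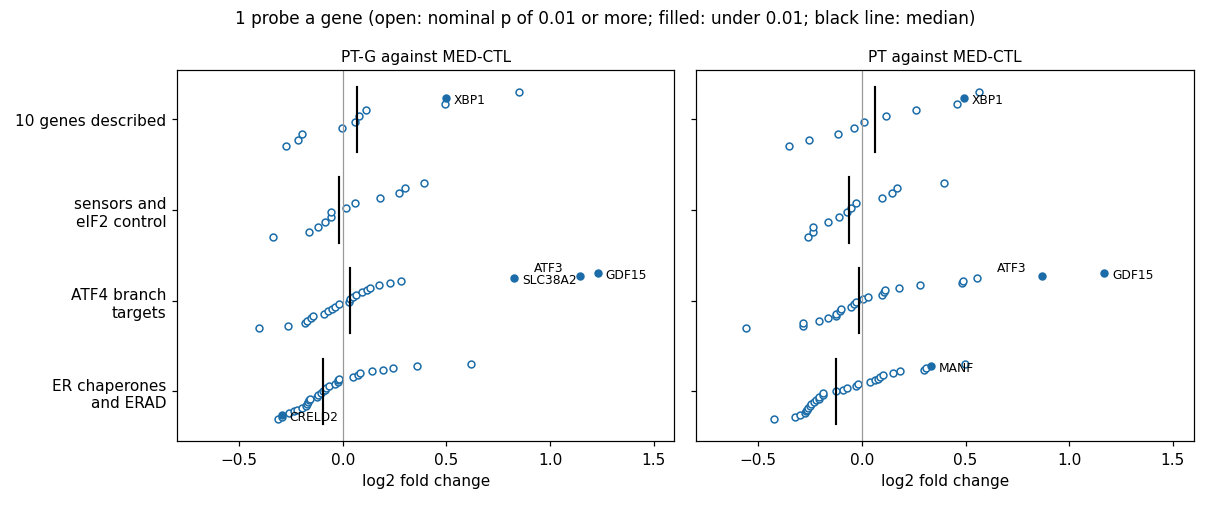
Log2 fold changes (x axis) of 1 probe a gene for the 10 genes described and for the 3 pathway lists (y axis) with PT-G and PT against MED-CTL, each list spread in order of its values, filled at a nominal p under 0.01, with a black line at the median. ATF3 and GDF15 lie farthest to the right with both digests, at 1.15 and 1.23 with PT-G, while the medians of the 3 lists lie between -0.13 and 0.03.

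The genes whose pattern was most like that of the brighter ATF4 probe over the 16 arrays, among 13037 named genes well above background on every array, were BZRAP1 (Pearson r of 0.9), BRD2 (0.871), GOLGA4 (0.867), RHOBTB2 (0.864) and UBE2D3 (0.864). None of the 10 genes was among the candidates by construction. After the mean of each run was subtracted these correlations lay between 0.827 and 0.913. They are a description over arrays that share conditions and runs. For genes with a pair of probes the correlation between them was 0.755 for TRIB3, 0.715 for HSPA5, 0.37 for XBP1, 0.193 for ASNS and 0.108 for ATF4.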

How the data were processed

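RNA of 16 cultures was hybridised to Agilent one-colour whole-genome arrays, 1 array a sample. The authors took the median foreground intensity of each spot (Feature Extraction 9.5.3.1, per the file headers) without background correction. The deposited table holds these as log2 values after quantile normalization over all spots, as a check against the scanner intensities showed.

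Groups came from the sample titles. Probes with fewer than 3 arrays free of an outlier mark in a group were left out (18 of 41000). Spots of a probe were averaged. limma 3.58.1 in R 4.3.3 (lmFit and eBayes, 2-sided, 12 residual and 1.9 prior degrees of freedom) was fitted to the 40982 probes and 16 arrays together without a block, since the methods of the study name none, with Benjamini-Hochberg adjustment over all probes and the study's nominal p under 0.01 as the call. Batches were tested in models of condition and batch. The study also filtered and re-annotated its probes, which was not done here. Promoters came from RefSeq. Alternatives changed the normalization, background correction, blocks, array weights and arrays left out. The scripts were tested on simulated data. Depth does not apply to arrays, and 4 arrays a group limit the precision. The p-values rest on a spread within conditions, pooled over the 4 conditions and moderated over all probes. Without a block this spread also holds the differences between runs and batches.

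All probes of the 10 genes were named. Of the pathway lists, up to 8 genes a comparison were named by the size of the change among those with an adjusted p under 0.05, or else a nominal p under 0.01, and 5 genes by likeness to ATF4. The members and lists were chosen with earlier results of these data known.

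Runs come from dates in the names of the array files. The numbers follow the runs except that MED-CTL replicate 2 belongs to run 1 and MED-CTL replicate 1 to run 2. Neither the labels nor the files say that a run is an experiment.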

Additional observations from a re-analysis of the deposited data

Results flagged for a closer look

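In 3 of 60 groups of 4 arrays (15 probes in 4 conditions), 1 array stood apart by Dixon's test, and chance gives about 1 in 20 such groups. The brighter TRIB3 probe read 15.92 on the array of PT-G replicate 4, and the other PT-G arrays lay between 16.52 and 16.58. The dimmer XBP1 probe read 10.84 on the same array, below the other PT-G arrays at 11.98 to 12.11. HERPUD1 read 15.39 on the array of MED-CTL replicate 4, below the other MED-CTL arrays at 15.76 to 15.82. All of these arrays belong to run 4, and the part of the run in these values was not tested.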

How the results depend on the processing

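XBP1 (brighter probe) stayed past a nominal p under 0.01 with both digests under each alternative run, except with the background-subtracted processed signal (0.47 and 0.45), where 0 of 15 probes passed for PT-G and 0 for PT. Leaving out 1 array gave counts from 1 to 2 (PT-G), from 1 to 1 (PT) and from 0 to 1 (PT-G against PT). Median scaling put the median of all probes at -0.11 for PT, against -0.01 otherwise.

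With the replicate number as a block (the replicate block), 3 probes of the 10 genes passed for PT-G and 4 for PT. The run gave 3 and 4, the slide 4 (with DDIT3 lower, -0.22) and 5, and the batch 3 and 3. The labels state no pairing by replicate number, and arrays with the same number deviated together with correlations from -0.00256 to 0.412 for PT, from 0.396 to 0.857 for PT-G and from 0.262 to 0.706 for p31-43. By run the correlations were -0.00256 to 0.621, 0.629 to 0.857 and 0.538 to 0.706. Of the 67 list genes, the replicate block gave 7 for PT-G, 7 for PT and 2 for p31-43 (7.58%, 8.45% and 1.05% of all probes). The run gave 9, 8 and 3 (9.11%, 10.2% and 1.38%), the slide 13, 8 and 5 (12.2%, 10.6% and 3.73%) and the batch 7, 7 and 1 (5.81%, 6.02% and 0.776%), so the share of all probes rose as well. Array weights gave 5 for PT. Without 1 array the list counts were 2 to 4 for PT-G, 2 to 4 for PT and 0 to 1 for p31-43. The cause of these differences was not tested. The count of probes differing between batches was 6 to 7 without 1 array.

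Signs were followed for every probe for PT-G and PT against MED-CTL. For p31-43 and for PT-G against PT they were followed only for XBP1, TRIB3, PPP1R15A and ATF4. Other genes changed sign there too, such as DDIT3 for p31-43 with the slide as a block (from 0.02 to -0.04). Each log2 fold change was counted once a setting. Among those followed that did not pass, the sign changed 24 times under another setting and 44 times without 1 array. For PT-G these were ASNS (A_32_P232747) with the processed signal (-0.082), normexp (-0.0072) and median scaling (-0.011), HSPA5 (A_24_P98411) with the processed signal (-0.026) and DNAJB9 with median scaling (0.080). For PT they were DDIT3 with the slide (-0.15) and array weights (-0.11), ASNS (A_32_P232747) with the processed signal (-0.056), normexp (-0.020), median scaling (-0.060) and the slide (-0.012), HSPA5 (A_24_P98411) with the slide (0.11) and weights (0.043), and DNAJB9 with median scaling (0.0355), the slide (0.060) and weights (0.016). For p31-43 they were TRIB3 (A_24_P305541) with weights (-0.14), PPP1R15A with median scaling (0.057) and XBP1 (A_23_P120845) with the processed signal (-0.065). For PT-G against PT they were TRIB3 with the slide (A_23_P210690, -0.061) and weights (A_24_P305541, 0.11), and XBP1 (A_23_P120845) with quantiles over non-control spots (-0.0023), the slide (-0.027) and weights (-0.10).

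Without 1 array the log2 fold changes that changed sign for PT-G ranged from -0.10 to 0.31 for ATF4 (A_23_P120941), -0.017 to 0.30 for SESN2, -0.14 to 0.35 for HSPA5 (A_24_P98411), -0.023 to 0.15 for HERPUD1 and -0.15 to 0.12 for DNAJB9. For PT they ranged from -0.13 to 0.067 for DDIT3, -0.054 to 0.057 for ASNS (A_32_P232747), -0.26 to 0.23 for HSPA5 (A_24_P98411) and -0.17 to 0.072 for DNAJB9. For p31-43 they ranged from -0.0235 to 0.38 for ATF4 (A_23_P120941), -0.14 to 0.35 for TRIB3 (A_24_P305541), -0.30 to 0.19 for PPP1R15A and -0.028 to 0.14 for XBP1 (A_23_P120845). For PT-G against PT they ranged from -0.35 to 0.022 for ATF4 (A_23_P120941), -0.059 to 0.19 and -0.56 to 0.11 for TRIB3, and -0.066 to 0.076 and -0.34 to 0.18 for XBP1. For p31-43 and PT-G against PT, only XBP1, TRIB3, PPP1R15A and ATF4 were followed here as well. Blocks, array weights and a fit of 2 groups were not run for the tests of batches. The run blocks added after the data were seen were the exception.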

Other observations

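With the run as a block, 7 of the 67 list genes had an adjusted p under 0.05 in limma for PT-G (6 higher, 1 lower), where 5.73% of all probes did and 3.18% were higher, and 6 for PT (4 higher, 2 lower), where 6.5% did and 3.06% were higher. Beside ATF3 and GDF15 these genes were chosen after their values were seen. With PT-G they were SLC38A2 (log2 fold change 0.83), SEC24D, a coat protein of vesicles leaving the ER (0.62), ERN1, the gene of the sensor IRE1 (0.27), MANF, a secreted ER stress protein (0.24), and CRELD2, an ER-resident protein (-0.29). With PT they were SEC24D (0.50), MANF (0.33), CRELD2 (-0.25) and ATF5, a transcription factor related to ATF4 (-0.56). These values are from the brightest probe of each gene. The other ERN1 probes had -0.01 and 0.01 with PT-G in the fit without a block.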
